A study of Mus musculus with 2 samples.

Results

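miR-21a, the mouse form of miR-21, is made as a hairpin whose stem yields a mature miRNA from either side, the 5p arm and the 3p arm. Both arms, miR-21a-5p and miR-21a-3p, were taken by name from the deposited tables and made up 2 of the 1358 mature miRNAs listed. The data came from retinas of CD-1 mice, which are outbred, taken at postnatal day 0 and wild-type per the labels, with no treatment or altered allele named. The only group held 2 small RNA libraries, replicate 1 and replicate 2, so there was no condition to compare. The title of the series concerns miR-216b, Foxn3 and amacrine cells, and miR-21a is not named there. The labels leave out whether the replicates are separate animals or pools, so the SDs here measure only the spread between these samples, which may be technical. The binomial and Fisher p-values use counting error alone and hold no spread between samples.

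A miRNA guides an Argonaute protein to mRNAs that pair with its seed, the bases near its 5′ end. Usually 1 arm of the hairpin is loaded as the guide strand and the other, the passenger strand, is degraded. miR-21-5p is the guide strand in most tissues, and its well-studied targets include Pdcd4, Reck and Spry1, which restrain translation, matrix remodelling or growth factor signalling. STAT3 and AP-1 activate its gene, it is abundant in many non-neural cells and tumours, and it rises in astrocytes after injury of nervous tissue.

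The mature sequences of both arms, from RefSeq on GRCm38.p6, are shown with the seed (bases 2 to 8) in capitals because the arms carry unrelated seeds.
miR-21a-5p: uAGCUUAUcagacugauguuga
miR-21a-3p: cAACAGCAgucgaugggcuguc
Both lie on the minus strand of chromosome 11, miR-21a-5p at 86584120 to 86584141 and miR-21a-3p at 86584082 to 86584103. The hairpin Mir21a spans 86584067 to 86584158. In GENCODE M21 this places it inside exon 12 of the protein-coding gene Vmp1 (86583865 to 86585451, same strand), in its 3′ untranslated region. Vmp1 encodes a membrane protein of autophagy. The nearest other annotated miRNA gene, Mir301, lay 529 kb away on the opposite strand, so miR-21a stands alone in this annotation rather than in a cluster. The deposited files name no genome build, and no coordinate comes from them.

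miR-21a-5p was among the most abundant miRNAs of the newborn retina, whereas miR-21a-3p was close to the limit of detection. miR-21a-5p held 63010 counts in replicate 1 and 68620 in replicate 2, of table totals of 8337902.5 and 8118207.8. In CPM, counts scaled to the total of each count table column, this was 7557 CPM in replicate 1 (exact Clopper-Pearson 95% interval 7498 to 7616) and 8453 CPM in replicate 2 (8390 to 8516). Its mean was 8005 ± 633 CPM (SD, n = 2), or 0.8% ± 0.0633 of all counts, and it ranked 22 and 19 in the libraries. Replicate 2 was the higher, and the intervals did not overlap. By its mean it ranked 21 of 1358, against a median of 1.47 CPM over the 1151 miRNAs with a count.

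miR-21a-3p held 7 counts in replicate 1 and 11 in replicate 2. These were 0.84 CPM (95% interval 0.338 to 1.73) and 1.35 CPM (0.676 to 2.42), a mean of 1.1 ± 0.364 CPM (SD, n = 2). The intervals of the libraries overlapped, and counting error alone was 37.8% and 30.2% of the counts. It ranked 661 and 583, or 620 by its mean. The limit that a count of 0 allows (3 counts) was 0.36 CPM for replicate 1 and 0.37 CPM for replicate 2, so the 3p arm was detected in both libraries but with little precision. These intervals cover counting error only, since reads amplified without molecular identifiers are not independent molecules. Both arms held whole-number counts in both libraries, so no fractional share from another miRNA was visible in either.

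**Figure D1:**
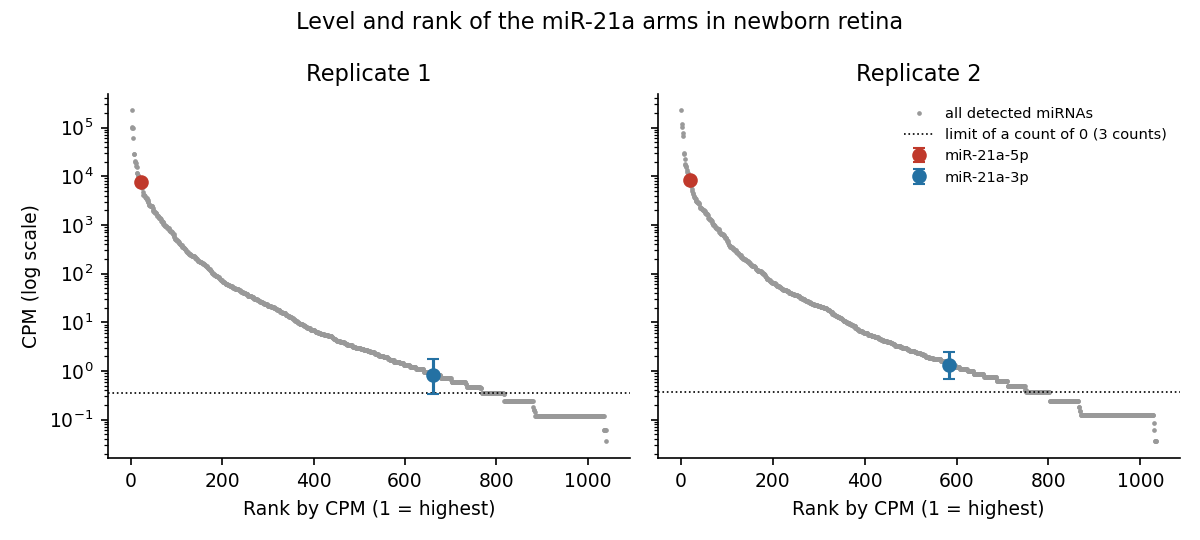
CPM (log axis) against rank for every detected miRNA (grey) in replicate 1 and replicate 2, with miR-21a-5p (red) and miR-21a-3p (blue), exact 95% intervals as bars and a dotted line at the limit that a count of 0 allows. miR-21a-5p sits at ranks 22 and 19 near the top of the curve, and miR-21a-3p at ranks 661 and 583 near its floor.

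The neighbours of miR-21a-5p in level were miRNAs of quite different background, and the order among them was not fixed. miR-128-3p, a miRNA of neurons, was at 8493 CPM in replicate 1 and 7588 in replicate 2. miR-99a-5p, of the miR-99/100 family, was at 8424 and 7606 CPM. Both exceeded miR-21a-5p in replicate 1 and fell below it in replicate 2. The mean log2 ratio of miR-21a-5p over miR-128-3p was -0.0064 ± 0.23 and over miR-99a-5p -0.0023 ± 0.22 (SD, n = 2), so neither pair differed beyond the spread. The next lower miRNA, let-7d-5p of the developmental timing family, was at 7591 and 6338 CPM, almost equal to miR-21a-5p in replicate 1 and lower in replicate 2 (mean log2 ratio 0.20 ± 0.30). Below it came miR-30a-5p, at 5684 and 6473 CPM, which miR-21a-5p exceeded by a log2 ratio of 0.41 in replicate 1 and 0.38 in replicate 2.

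This last difference was called. A call needed 1 sign in both libraries, an adjusted p below 0.05 in each (exact binomial test, two-sided, against equal counts, Benjamini-Hochberg over 709 pairs) and a mean log2 ratio over 2 SD. By this rule miR-21a-5p was called higher than 686 of the 709 other miRNAs with at least 10 counts (96.8%) and lower than 15 (2.12%), with 8 undecided. The undecided were let-7c-5p, miR-181b-5p and miR-30c-5p above it by mean level, let-7d-5p, miR-96-5p and miR-125a-5p below it, and miR-99a-5p and miR-128-3p beside it. In all 8 the mean log2 ratio was within 2 SD of 0. Adapter ligation differs in yield between sequences, and a level compared between miRNAs holds that yield too.

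For miR-21a-3p the neighbours in mean level were miR-3087-3p (1.15 ± 0.58 CPM), miR-467a-3p (1.12 ± 0.108 CPM), miR-6947-5p (1.1 ± 0.193 CPM) and miR-26a-1-3p (1.09 ± 0.151 CPM). miR-365-1-5p and miR-7664-3p held the same counts as miR-26a-1-3p, 10 and 8. All of these lay within the SD of miR-21a-3p, and no order among them can be read at this depth.

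The miR-21a hairpin gave reads almost wholly from its 5p arm. Of its counts the 3p arm made up 0.0111% in replicate 1 (7 of 63017, exact 95% interval 0.00447 to 0.0229%) and 0.016% in replicate 2 (11 of 68631, 0.008 to 0.0287%). The 5p arm thus exceeded the 3p arm 9001-fold and 6238-fold. With 0.5 added to each count the log2 ratio of 5p over 3p was 13.04 and 12.54 in replicates 1 and 2, on average 12.79 ± 0.35 (SD, n = 2). The difference was called, and its exact binomial p was below the smallest number the software stores in both libraries. The 3p share did not differ detectably between the libraries (odds ratio 1.44 for replicate 2 over replicate 1, 95% interval 0.511 to 4.39, Fisher's exact test, two-sided p = 0.488).

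A called excess of the 5p arm was common. The test took the 312 hairpins that list both arms under the same name and hold 10 or more counts per library over the arms together. Arms named by hairpin copy, such as miR-26a-1-3p beside miR-26a-5p, were not paired. The 312, and the ranks among them, therefore leave out some abundant miRNAs. The arms differed in 279 (89.4%), the 5p arm was called higher in 144 (46.2%), and in 126 (40.4%) it dominated 4-fold or more in both libraries. The call for miR-21a is therefore near this background. The size of its ratio is given as a description. It ranked the sixth of 312 for 5p over 3p in each library, and the tenth when either direction counted. The median absolute log2 ratio was 4.59 over all 312 hairpins and 7.93 over the 50 whose larger arm reached 1000 CPM in both libraries.

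The 4 hairpins next to miR-21a in this order rested on even fewer counts of the lesser arm over both libraries together. Just above it were miR-541 (mean log2 ratio 13.15 ± 1.65; 3p counts 8 and 1), an imprinted miRNA, and miR-99a (13.30 ± 0.89; 3p counts 4 and 9). Just below it were miR-100 (12.10 ± 1.63; 3p counts 0 and 2) and miR-669c (11.47 ± 2.19; 3p counts 0 and 3). The ratio of miR-21a had a smaller SD than any of these 4, but with 7 and 11 counts of the 3p arm its place among them is not resolved. In the 50 abundant hairpins the lesser arm ran from 0 to 3817 CPM with a median of 26.7 CPM, and 6 of them had a lesser arm below miR-21a-3p. These were miR-320, miR-101a, miR-381, miR-541, let-7g and miR-99a.

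**Figure D2:**
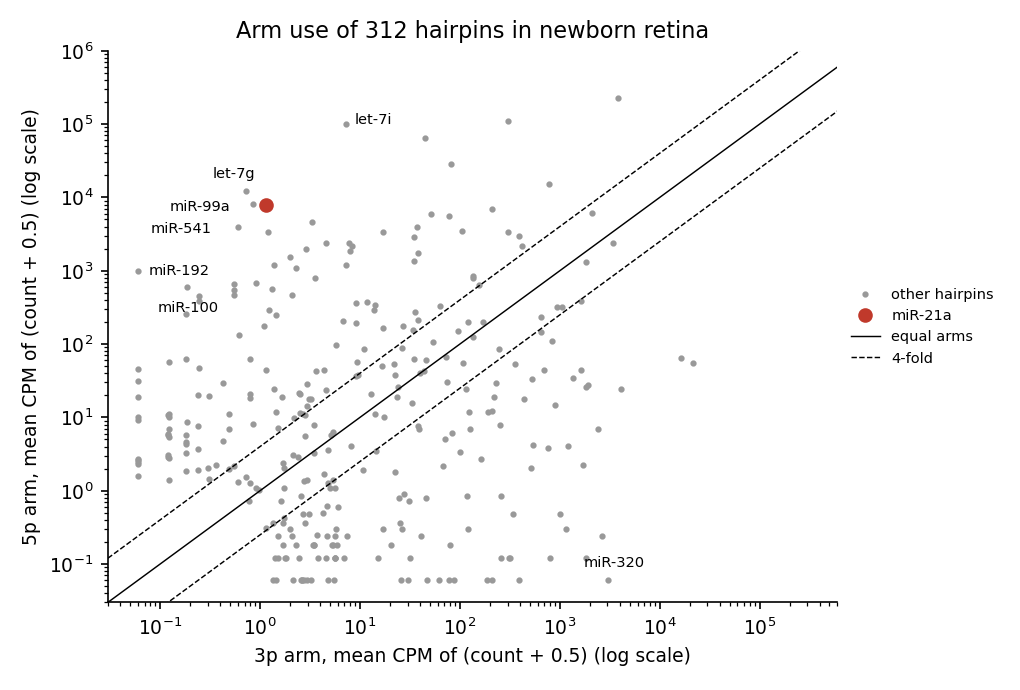
Mean CPM of the 5p arm against that of the 3p arm (log axes, 0.5 added to each count) for 312 hairpins, with miR-21a in red, a solid line at equal arms and dashed lines at 4-fold. miR-21a lies near let-7g, miR-99a and miR-541 at the upper left, where an abundant 5p arm faces a 3p arm of few counts.

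The hairpin's predicted fold was examined for the duplex that the arms form, since the strand whose 5′ end is paired less firmly, and which starts with U, is known to be favoured for loading. RNAfold paired 19 bases of miR-21a-5p with miR-21a-3p, of 22 in each arm, with 16 bases between the arms. miR-21a-5p starts with U and miR-21a-3p with C. The first 4 bases of miR-21a-5p formed 2 G-C pairs, 1 A-U pair and 1 G-U pair, and its first base U was the one in the G-U pair. The first 4 bases of miR-21a-3p formed 2 G-C and 2 A-U pairs, with a G-C pair at its first base. This is a computed structure of the RefSeq sequence, and its part in the arm ratio was not tested.

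The most frequent read of miR-21a-5p was the same in both libraries and was a base longer than the miRBase entry at the 3′ end. It started at the annotated first base, so its seed was unchanged. The added base is the capital in the read as deposited, in DNA letters.
miR-21a-5p, most frequent read: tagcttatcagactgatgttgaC
The 23 bases matched the hairpin with 0 mismatches, so the added C equals the base that follows the miRBase end. In the predicted fold miR-21a-3p overhung the first base of miR-21a-5p by 2 bases at its 3′ end. The miRBase form of miR-21a-5p overhung the first base of miR-21a-3p by 1 base and the 23-base read by 2. An overhang of 2 bases at each 3′ end is the usual product of the nucleases Drosha and Dicer. The deposited text gives the leading read only, so the share of miR-21a-5p reads that carried the C is not known from it.

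A single added base was not particular to miR-21a-5p. The leading read was identical in the libraries for 175 of the 180 miRNAs with a mean of at least 100 CPM. In 30 of these it had added 3′ bases and in 18 exactly 1. The added base was C in 4 of the 18, namely miR-30d-5p, miR-21a-5p, miR-378a-3p and miR-342-3p. Of the 16 with an entry in RefSeq, 15 had a read found whole in the hairpin, as miR-21a-5p and miR-342-3p did. The reads of miR-30d-5p and miR-378a-3p were not among the 15, for lack of an entry or of a match. Only miR-30d-5p, miR-92a-3p and miR-7a-5p among the 18 were more abundant than miR-21a-5p.

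For miR-21a-3p the leading read differed between the libraries in its last base alone. The capital marks the base that does not match the hairpin.
miR-21a-3p, most frequent read in replicate 1: caacagcagtcgatgggctgtc
miR-21a-3p, most frequent read in replicate 2: caacagcagtcgatgggctgtA
The read of replicate 1 was the miRBase form, and that of replicate 2 carried C22A (position counted from 1 at the 5′ end of the read, hairpin base first). Both started at the annotated base and kept the seed. With 7 and 11 counts behind them, the leading read may rest on very few reads.

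Other miRNAs with the same seed added almost nothing. Among table entries with a RefSeq sequence, the seed of miR-21a-5p (AGCUUAU) was shared by miR-21c alone, on the minus strand of chromosome 8 (128278188 to 128278208), and the seed of miR-21a-3p (AACAGCA) by none. The sequence of miR-21c is shown with its seed in capitals.
miR-21c: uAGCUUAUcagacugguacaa
miR-21c held 1 count in replicate 1 and 0 in replicate 2, both below the limit of 3 counts, so no fold was computed. Its single read had 2 mismatches to the Mir21a hairpin (G18A and T19C) against 4 to its own (G16A, A20T, A21G and T22A). At bases 18 and 19 the read matched its own hairpin. The numbers of mismatches therefore do not settle which hairpin it came from.

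A second entry, miR-3965, chosen after its values were seen, also held reads close to miR-21a-5p. It is annotated on the plus strand of chromosome 5 (134326494 to 134326512), with 1 count in replicate 1 and 2 counts in replicate 2. Its mature sequence is shown with the seed in capitals, and its reads with capitals at each mismatch to the Mir21a hairpin.
miR-3965: uGCUUAUCagccugauguu
miR-3965, most frequent read in replicate 1: AagcttatcagCctgatgttg
miR-3965, most frequent read in replicate 2: ATgcttatcagactgatgttga
The read of replicate 1 had 2 mismatches to Mir21a (T1A and A12C) and 3 to the miR-3965 hairpin. The read of replicate 2 also had 2 (T1A and A2T) against 3. In the read of replicate 1 the C of A12C matched the miR-3965 hairpin, where its mismatches were C1A, T2A and C21G. In the read of replicate 2 the T of A2T matched the miR-3965 hairpin, where its mismatches were C1A, C12A and C21G. The numbers of mismatches therefore do not settle which hairpin either read came from. Placement was without gaps and the hairpin base comes first in each substitution. The counts of miR-21c and miR-3965 together came to at most 2 in a library, so they do not change the level of miR-21a-5p. Of all most frequent reads, 1095 in replicate 1 and 1080 in replicate 2, the letters AGCTTAT at bases 2 to 8 stood in 3 (miR-21a-5p, miR-21c and miR-3965) and in 1 (miR-21a-5p).

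The other miRNAs linked to injury and inflammation were at 552 CPM or less. In that list of 9, 7 had at least 1 count in both libraries, and miR-21a-5p was called higher than all 6 that could be tested, which is near the 96.8% of all 709 miRNAs. miR-146b-5p, a brake on innate immune signalling, was the highest at 552 ± 25.8 CPM, below miR-21a-5p by 14.5-fold (log2 ratio 3.86 ± 0.18). Its relative miR-146a-5p was at 25.2 ± 4.51 CPM, 318-fold below. miR-155-5p, induced in activated leukocytes, was at 4.49 ± 0.775 CPM, and miR-31-5p at 3.04 ± 0.115 CPM. Neither library held a count of the myeloid miR-223-3p or the lymphocyte miR-150-5p. The list's median was 2.01 CPM, against 1.47 CPM over all miRNAs with a count.

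In the list of growth-linked miRNAs only miR-92a-3p, of the miR-17~92 cluster, stood above miR-21a-5p. It was at 11844 CPM in replicate 1 and 11694 CPM in replicate 2, and the log2 ratio of miR-21a-5p over it was -0.56 ± 0.13 (called). miR-21a-5p was called higher than the other 8 of 9, against 96.8% of all 709 miRNAs, and these were led by miR-20a-5p (2143 ± 58.1 CPM, 3.73-fold lower) and miR-17-5p (1350 ± 94.2 CPM, 5.93-fold lower) of the same cluster. miR-19a-3p, also of that cluster, was at 249 ± 11.9 CPM. The list's median was 222 CPM.

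Against miRNAs of neurons, progenitors and sensory cells, miR-21a-5p held a middle place. The leading miR-9-5p and the sensory cluster's main members were well above it. The log2 ratio of miR-21a-5p was -4.83 ± 0.10 over miR-9-5p, -3.78 ± 0.024 over miR-182-5p, -3.03 ± 0.027 over miR-183-5p and -0.52 ± 0.036 over miR-7a-5p, all called. miR-21a-5p was called higher than miR-9-3p (log2 ratio 1.07 ± 0.24), from the opposite arm of that miRNA's hairpins, and than miR-218-5p (1.84 ± 0.31), miR-129-5p (2.72 ± 0.042) and miR-124-3p (3.63 ± 0.28). It was thus 12.4-fold above miR-124-3p, a miRNA of differentiated neurons. Its excess over miR-96-5p, the least abundant member of the sensory cluster, was 0.21 in replicate 1 and 0.65 in replicate 2 on the log2 scale and was not called (0.43 ± 0.31).

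miR-21a-5p also exceeded the markers of every non-neural cell type examined. This is near the background, since it was called higher than 96.8% of all 709 miRNAs. These values bear on it because many non-neural cells hold much miR-21, and their part in its level was not tested. The pigment epithelium list (miR-204-5p and miR-211-5p, both with counts) summed to 3789 and 3000 CPM in replicates 1 and 2. Its members were far apart, with means of 3389 ± 558 CPM for miR-204-5p and 5.62 ± 0.453 CPM for miR-211-5p. The endothelial list (miR-126a arms, 2 of 2 with counts) summed to 985 and 854 CPM. The 3p arm of miR-126a was at 905 ± 90.9 CPM, against 14.8 ± 2.30 CPM for its 5p arm. The list of lens, cornea and surface epithelium summed to 860 and 990 CPM, with 2 of 3 holding counts and miR-205-5p at 0. This list was led by miR-184-3p at 804 ± 92.8 CPM, while miR-203-3p stood at 121 ± 0.802 CPM. Each of these sums thus came mostly from a single miRNA. miR-21a-5p was 2.36 times, 8.71 times and 8.65 times the mean sums of these lists.

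The sums of the mesenchymal, mural and blood cell lists were lower still. The fibroblast and mesenchyme list summed to 89.0 and 85.0 CPM (7 of 7 with at least 1 count in both libraries). Its highest single entry was miR-199a-5p at 37.8 ± 4.1 CPM. The entries miR-199a-3p and miR-199b-3p held equal values, 22.5 ± 0.64 CPM each, which may be shares of the same reads. The list of smooth muscle and pericytes summed to 59.1 and 66.5 CPM (3 of 4 with a count in both, almost wholly miR-143-3p, with miR-145a-5p at 1 and 2 counts and miR-143-5p at 0). The erythroid list summed to 124 and 127 CPM (4 of 4, led by miR-486a-5p and miR-486b-5p at 62.3 ± 1.18 CPM each, with the red cell miRNA miR-451a at 3 counts in each library and miR-144-3p at 2 and 1). The equal values of miR-486a-5p and miR-486b-5p may also be shares of the same reads. The leukocyte list summed to 7.2 and 6.16 CPM (3 of 5 with a count in both, of which miR-142a-5p held 2 and 1, with miR-223-3p and miR-150-5p at 0). miR-21a-5p was 92.0 times, 127 times, 64.0 times and 1199 times the mean sums of these 4 lists. In a bulk library fewer cells of a type and less RNA per cell cannot be told apart, and the counts do not show which retinal cells held miR-21a.

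**Figure D3:**
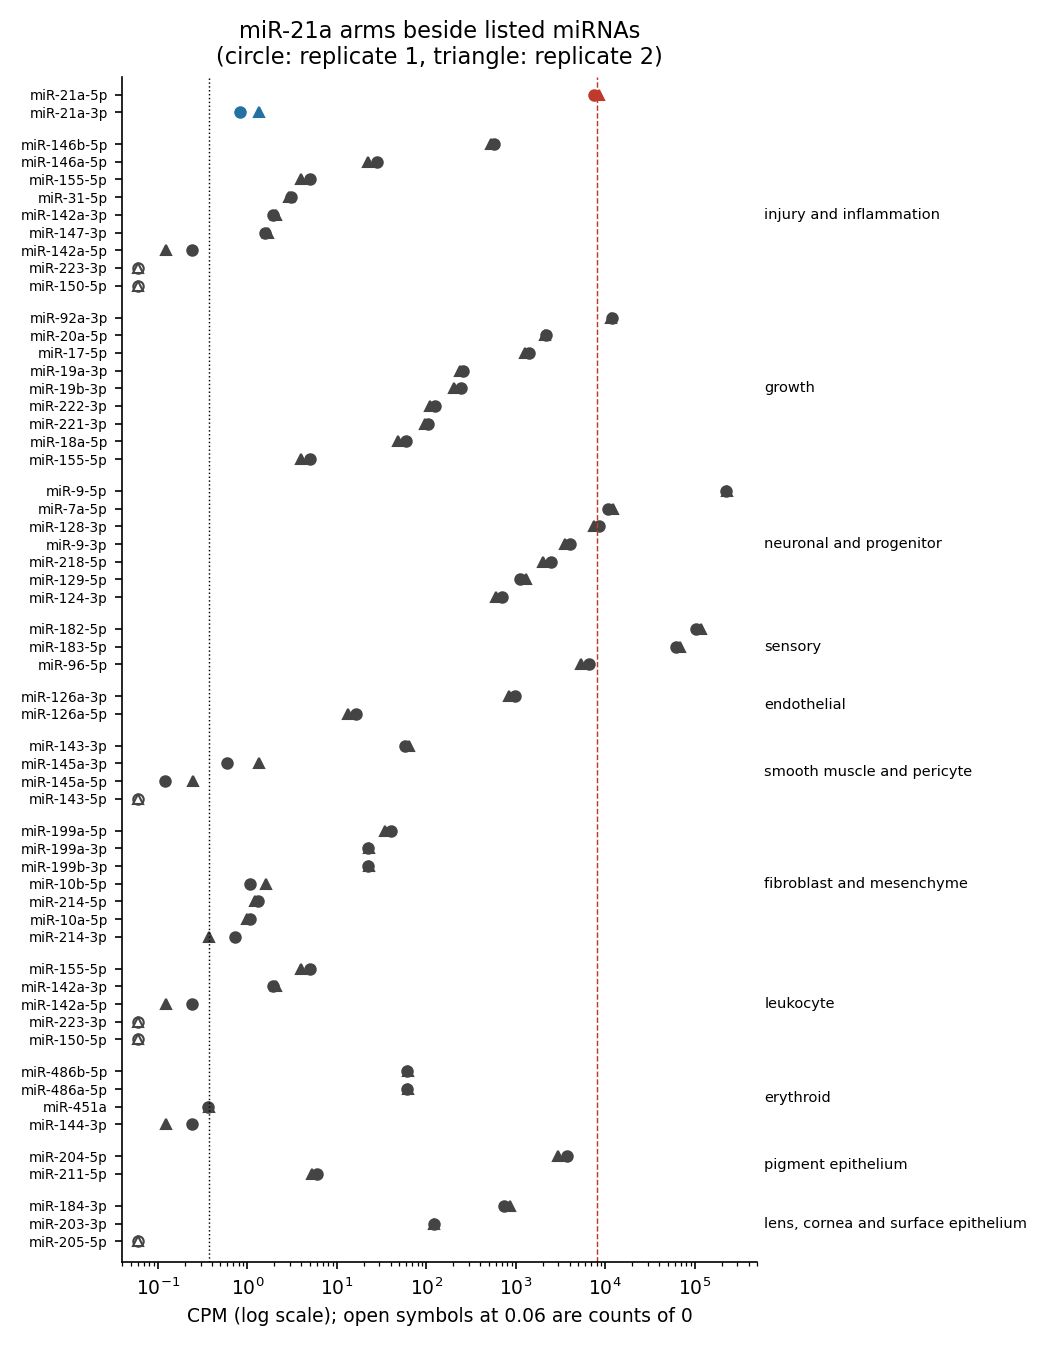
CPM (log axis) in replicate 1 (circles) and replicate 2 (triangles) of both miR-21a arms and of the listed miRNAs by group, with a red dashed line at the mean of miR-21a-5p and a dotted line at the limit of a count of 0. Of the listed miRNAs only miR-9-5p, miR-182-5p, miR-183-5p, miR-92a-3p and miR-7a-5p lie to the right of the red line in both libraries, and open symbols mark counts of 0.

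miR-21a-5p was higher in replicate 2 than in replicate 1, by a small amount that exceeded counting error. The log2 ratio was 0.16 (1.12-fold, exact 95% interval 1.11 to 1.13-fold) with an adjusted p of 3.77e-90 in the exact two-sided binomial test (Benjamini-Hochberg over 710 miRNAs). This test compares the libraries, not conditions. Of the 710 miRNAs 198 differed (27.9%), 59 of them higher in replicate 2 (8.31%) and 139 lower. This balance depends on the scaling, with 107 higher and 80 lower under TMM (edgeR) and 101 higher and 88 lower with DESeq2 size factors. The direction of miR-21a-5p went against the median of all tested miRNAs, which was -0.12 by table totals. Scaled by TMM its log2 ratio was 0.28 and with DESeq2 size factors 0.26, both past the test, with medians of -0.0037 and -0.02. Calls were more common among abundant miRNAs. By table totals, of the 180 miRNAs with a mean of at least 100 CPM, 45 were called higher in replicate 2 and 96 lower. A larger absolute log2 ratio than that of miR-21a-5p was found in 96 of these 180, and a larger rise in 26. The coefficient of variation of miR-21a-5p over the libraries was 7.91%, and the common coefficient beyond counting error in edgeR was 0.104 as a fraction.

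miR-21a-3p did not differ detectably between the libraries. Its log2 ratio was 0.66, 1.58-fold, with an exact 95% interval of 0.571 to 4.91-fold and an adjusted p of 0.578 in the same binomial test. The interval holds the ratio of miR-21a-5p, so whether the arms moved together cannot be read from these counts.

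**Figure D4:**
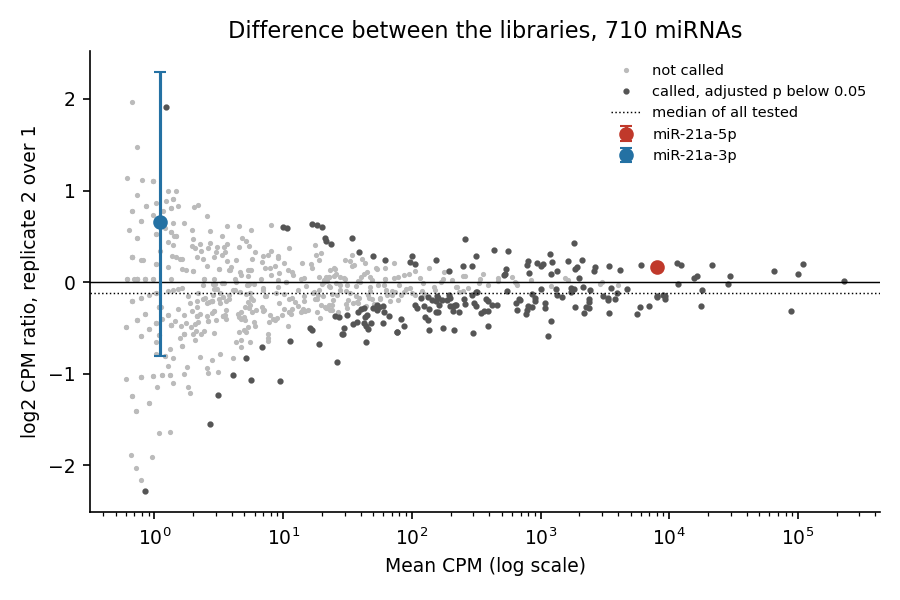
Log2 CPM ratio of replicate 2 over replicate 1 against mean CPM (log axis) for 710 miRNAs, called ones dark, with miR-21a-5p (red) and miR-21a-3p (blue), exact 95% intervals as bars and the median of all tested as a dotted line. miR-21a-5p sits at 0.16 with an interval smaller than its symbol, and miR-21a-3p at 0.66 with an interval that spans 0.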

How the data were processed

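Small RNA of 18 to 30 nt was gel-purified from 1 µg of total RNA and ligated, and cDNA of 60 to 80 nt was selected, per the labels' protocols. The submitters' processing notes name bcl2fastq 2.17.1.14; aligner, counter and build: not given in the sources used here. The deposited table of estimated counts gives 1 unscaled value per mature miRNA and library; 6.77% and 5.96% of its values were not whole, and counts were rounded for tests. The deposited CPM values sum to 88.5% of a whole library's value in each column, so the rows analysed are part of the authors' total. The deposited text table holds the most frequent read of each miRNA, compared with miRBase 21 per the file headers, and other read forms were not analysed here.

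CPM here uses the total of the count table and is 1.13 times the deposited CPM. Tests were exact two-sided binomial tests with Benjamini-Hochberg adjustment at 0.05, on miRNAs with a summed count of at least 10, with 0.5 added to counts for log2 ratios. On simulated counts the test between libraries called 143 of 191 miRNAs changed 2-fold (79 of 79 at 500 counts or more). It also called 7 unchanged ones, with 711 tested in all, changed and unchanged together. The arm test called 200 of 200 hairpins with a 4-fold ratio and 0 of the equal ones, of 300 simulated. The simulated counts held counting error alone. They lacked the further spread between the real libraries (common coefficient of variation 0.104), so false calls under that spread were not measured. Scaling alternatives used edgeR 4.0.16 (TMM) and DESeq2 1.42.0 size factors in R 4.3.3. Other values came from RNAfold 2.7.2 and Python 3.11.15 with SciPy 1.17.1, statsmodels 0.14.6, pandas 2.3.3 and NumPy 2.4.6, and plots from matplotlib 3.10.9.

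The members, lists and tests were chosen with earlier results of these data known. Named miRNAs were the arms, miRNAs sharing a seed, the 2 next higher and lower miRNAs in level for each arm, the 2 hairpins next to miR-21a in arm ratio on each side, and the leading and undetected members of each list. Fisher's test of the arm split and the comparison of reads with hairpins were added after the values were seen.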

Additional observations from a re-analysis of the deposited data

How the results depend on the processing

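By the authors' deposited CPM the mean of miR-21a-5p was 7086 CPM, since that total is larger than the sum of the count table, a shift over the SD of 633 CPM. Leaving out a replicate, which with 2 libraries cannot move a mean by more than its SD, gave 7557 to 8453 CPM for miR-21a-5p, 0.84 to 1.35 CPM for miR-21a-3p and a log2 arm ratio of 12.54 to 13.04. The arm ratio was 12.71 with 1 added to each count, 12.87 with no addition and 12.91 from the deposited CPM. The number of hairpins dominated by the 5p arm was 140 at 2-fold, 101 at 8-fold, 90 with at least 100 counts over both arms, and 129 to 133 when a replicate was left out. The number of miRNAs that differed between the libraries was 187 with TMM, 189 with DESeq2 size factors and 183 with a minimum of 1 count. Of the 43 miRNAs paired with miR-21a-5p 39 were called, 39 with either other addition and 42 to 43 in a single library. miR-99a-5p, let-7d-5p and miR-128-3p, none of them called, changed sign between the libraries. No paired analysis was possible because the series holds a single group. Depth limits the 3p arm, whose 7 and 11 counts set the error of the arm ratio.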
